A study of Homo sapiens with 6 samples.

Results

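SVA elements are composite retrotransposons of the great apes and humans, listed in the deposited repeat tables as 6 subfamilies, SVA_A to SVA_F. They were taken by row name, which gave 6 of the 15600 rows of the raw count table, and all 6 were among the 4665 rows that passed the filter on low counts. The study sequenced RNA of H9 cells, a widely used human embryonic stem cell line, with 2 libraries for each of 3 culture states. The RSeT+DT group was cultured in RSeT, a commercial medium that holds human cells in a naive-like state, with 10 nM DZNep and 5 nM TSA, and was collected 48 hours later. The RSeT group had the same medium, with no added compound named in the labels. The primed group was cultured in mTeSR. DZNep blocks S-adenosylhomocysteine hydrolase and so lowers histone methylation, and TSA (trichostatin A) inhibits histone deacetylases. All groups share a single cell line, and the labels leave unsaid if the 2 replicates of a state were grown apart, so p-values reflect only how these libraries vary, which may be technical.

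An SVA element joins several parts: an array of the CCCTCT hexamer at its 5′ end, an Alu-like region, a tandem repeat of variable number (the VNTR), a part called SINE-R that derives from the retrovirus HERVK (HML-2), and a poly(A) tail. It encodes no protein and is copied into the genome by the LINE1 machinery. SVA_A is the oldest subfamily, SVA_D is the most numerous in the human genome, and SVA_E and SVA_F are found only in humans. In human pluripotent cells SVA elements are bound by the KRAB zinc finger protein ZNF91, which recruits the repressor TRIM28, and SVA copies can act as promoters and enhancers of nearby genes. No consensus sequence of an SVA subfamily was used here.

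Of all repeat counts, SVA made up 0.301% and 0.310% in RSeT+DT cells, 0.330% and 0.340% in RSeT cells, and 0.318% and 0.329% in primed cells. Library totals lay between 11520770 counts (RSeT+DT replicate 2) and 38312112 (RSeT replicate 1), and the smallest SVA count was 2294, in SVA_A of RSeT+DT replicate 2, for which counting error alone is 2.09%. The tables list repeats and not genes, so the labelled cell type could be checked only with repeats known to be transcribed in pluripotent cells. HERVH-int averaged 129400 ± 6133 TMM-scaled CPM (explained below; SD, n = 2 each) in RSeT+DT, 74210 ± 1382 CPM in RSeT and 22850 ± 1087 CPM in primed cells, and LTR7 averaged 16620 ± 771 CPM, 9497 ± 152 CPM and 3130 ± 75 CPM in the same order. In bulk RNA, a change in the number of cells that transcribe an element cannot be told apart from a change in RNA per cell.

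Each count is the sum over all genomic copies of a subfamily. Levels are given below as TMM-scaled CPM, which are counts set to a common library total after edgeR's TMM factors, fitted so that most features do not change, were applied. Because copy number and length differ between subfamilies, levels are compared between groups and not between subfamilies. Closely related subfamilies can share reads, and SVA copies in introns or untranslated regions also collect reads of the host transcript. The part these played in the values was not tested.

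Within the family, the share of SVA counts that each subfamily took differed between groups. These shares do not depend on how libraries are scaled. SVA_E, a human-specific subfamily, took a larger share in RSeT+DT than in RSeT or primed cells. SVA_F, the other human-specific subfamily, and SVA_A, the oldest, took a larger share in RSeT than in primed cells, while SVA_B and SVA_C took a smaller one. Shares were tested with edgeR's quasi-likelihood test over all features with the library size set to the SVA sum, so that a log2 fold change is the change of a subfamily relative to the family, and p-values were adjusted over all 4665 features (Benjamini-Hochberg, threshold 0.05).

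**Figure D1:**
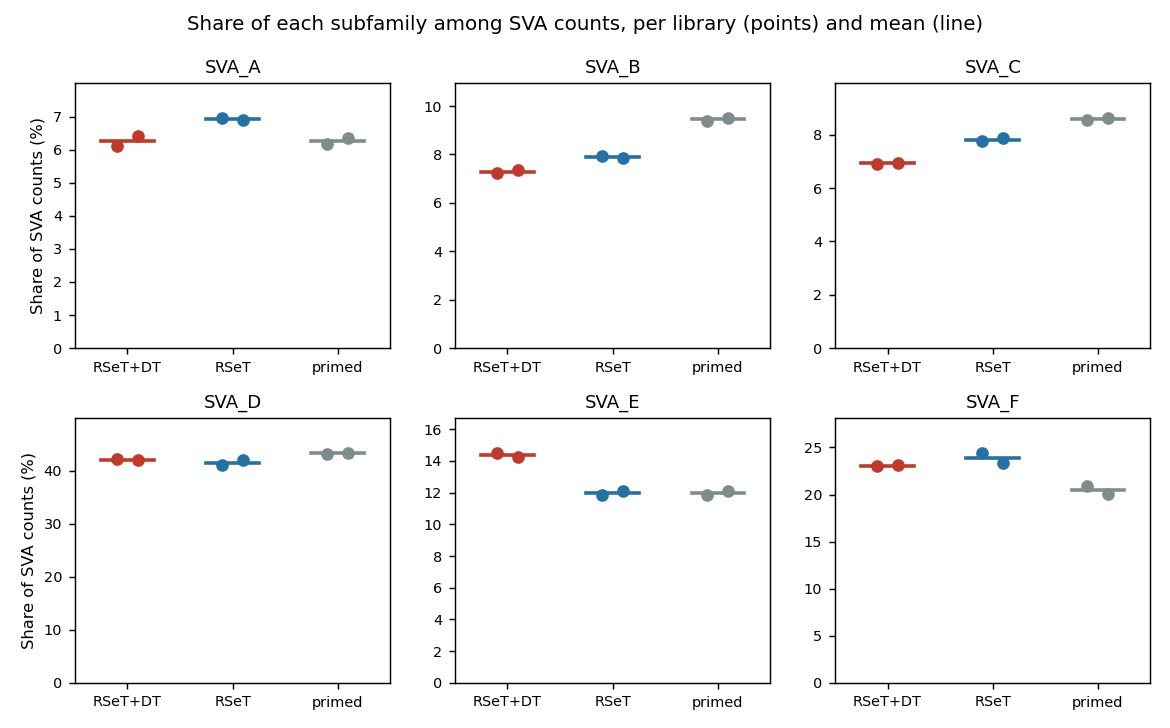
Share of each SVA subfamily among all SVA counts (y axis, percent) in RSeT+DT, RSeT and primed cells; points are libraries and lines are means of 2. SVA_E stands at 14.5% and 14.2% in RSeT+DT against 11.8% to 12.1% in the other 4 libraries, SVA_F is lowest in primed cells, and SVA_B and SVA_C are highest there.

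SVA_E took 14.5% and 14.2% of SVA counts in RSeT+DT, 11.9% and 12.1% in RSeT, and 11.8% and 12.1% in primed cells. The RSeT+DT libraries were both above the other 4, which overlapped. Relative to the family, SVA_E was higher by 0.26 (log2, SE 0.041) in RSeT+DT against RSeT cells (adjusted p = 3.03e-05) and by 0.26 (SE 0.041) in RSeT+DT against primed cells (adjusted p = 2.58e-05). In RSeT against primed cells the difference was 0.00082 (SE 0.041) and did not pass (adjusted p = 0.988). Without each library in turn, the difference between RSeT+DT and RSeT stayed between 0.25 and 0.28 and passed in 6 of 6 fits.

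SVA_F took 23.0% and 23.1% of SVA counts in RSeT+DT, 24.4% and 23.4% in RSeT, and 20.9% and 20.0% in primed cells. Both groups grown in RSeT medium were above the primed libraries. The share of SVA_F was higher by 0.23 (log2, SE 0.044) in RSeT against primed cells (adjusted p = 0.000284) and by 0.17 (SE 0.044) in RSeT+DT against primed cells (adjusted p = 0.00315). It stood at -0.052 (SE 0.044) in RSeT+DT against RSeT cells and did not pass (adjusted p = 0.37). Counts of SVA_F per SVA_E count were 1.59 and 1.62 in RSeT+DT, 2.06 and 1.93 in RSeT, and 1.76 and 1.65 in primed cells. The 3 groups did not overlap in this ratio, but how often other ratios separate the groups was not counted.

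SVA_A took 6.11% and 6.42% of SVA counts in RSeT+DT, 6.96% and 6.88% in RSeT, and 6.17% and 6.35% in primed cells. The RSeT libraries were above the other 4, which overlapped. The share was lower by 0.14 (log2 fold change -0.14, SE 0.040) in RSeT+DT against RSeT cells (adjusted p = 0.00604) and higher by 0.14 (SE 0.039) in RSeT against primed cells (adjusted p = 0.00428). Each call was lost without 1 library: the adjusted p was 0.0509 in RSeT+DT against RSeT cells without RSeT replicate 1, and 0.096 in RSeT against primed cells without primed replicate 1.

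SVA_B and SVA_C, older subfamilies shared with other great apes, had the smallest share in RSeT+DT and the largest in primed cells. SVA_B took 7.22% and 7.34% in RSeT+DT, 7.92% and 7.84% in RSeT, and 9.39% and 9.51% in primed cells. SVA_C took 6.90% and 6.95% in RSeT+DT, 7.76% and 7.86% in RSeT, and 8.56% and 8.62% in primed cells. For both, the 3 groups did not overlap. Such separation is frequent with 2 libraries per group. With TMM (explained above), 32.3% of all features were lower in RSeT+DT than in RSeT cells with no overlap. How often all 3 groups separate among other features scaled to the SVA sum was not counted. In RSeT against primed cells, the share of SVA_B was lower by 0.26 on the log2 scale (log2 fold change -0.26, SE 0.034; adjusted p = 3.21e-06) and that of SVA_C had a log2 fold change of -0.14 (SE 0.035; adjusted p = 0.00255). In RSeT+DT against primed cells the log2 fold changes were -0.38 (SE 0.036) for SVA_B and -0.31 (SE 0.036) for SVA_C. In RSeT+DT against RSeT cells they were -0.11 (SE 0.035; adjusted p = 0.0131) for SVA_B and -0.17 (SE 0.036; adjusted p = 0.000555) for SVA_C. SVA_B in this last comparison passed in only 2 of 6 fits with a library left out. Its adjusted p was 0.098 without RSeT+DT replicate 1, 0.0762 without RSeT replicate 1, 0.053 without primed replicate 1, 0.0539 without primed replicate 2, 0.0911 when no feature was filtered out, and 0.0637 with the geometric mean of SVA counts as library size. SVA_C in RSeT against primed cells did not pass without primed replicate 2 (adjusted p = 0.0604).

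SVA_D took 42.2% and 41.9% of SVA counts in RSeT+DT, 41.0% and 41.9% in RSeT, and 43.2% and 43.4% in primed cells. Its share did not pass in any of the 3 comparisons, with log2 fold changes between -0.061 and 0.021. In all, 4 of 6 shares passed in each comparison. Over all features with the same scaling, 41.2% passed for RSeT+DT against RSeT, 50.5% for RSeT against primed and 49.1% for RSeT+DT against primed cells. The other features are not parts of the family and are not tied to add up to the whole, as the 6 shares are. Without RSeT replicate 1, 2 shares passed in RSeT+DT against RSeT cells (SVA_C and SVA_E). The human-specific subfamilies SVA_E and SVA_F jointly held 37.6% and 37.4% of SVA counts in RSeT+DT, 36.3% and 35.5% in RSeT, and 32.7% and 32.1% in primed cells. The split of SVA counts over the 6 subfamilies was compared between the replicates of a group by chi-square, which divided by its degrees of freedom was 0.953 for RSeT+DT (within sampling noise), 5.89 for RSeT and 2.45 for primed cells. Over all repeats the replicates gave 10.0 for RSeT+DT, 3.61 for RSeT and 16.35 for primed cells. Where replicates differ beyond sampling noise, this value grows with the counts per row. The test over all repeats also took rows with few counts, so its values cannot be set against those of the SVA split. All replicates were kept as separate libraries, which does not tell if they were grown apart.

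The SVA sum was 3396 and 3376 TMM-scaled CPM in RSeT+DT, 3293 and 3378 in RSeT, and 2944 and 2927 in primed cells. The libraries grown in RSeT medium were all above the primed libraries, and the RSeT+DT and RSeT libraries overlapped. The sum rose by 13.7% in RSeT against primed cells (log2 fold change 0.19, SE 0.036; adjusted p = 0.000156, edgeR with TMM factors) and by 15.3% in RSeT+DT against primed cells (0.21, SE 0.036; adjusted p = 4.61e-05). It differed by 0.020 (SE 0.036) in RSeT+DT against RSeT cells and did not pass (adjusted p = 0.697).

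These levels depend on the scaling. In the deposited CPM, which scale to library totals, the SVA sum was 3014 and 3102 in RSeT+DT, 3302 and 3398 in RSeT, and 3176 and 3287 in primed cells, and none of the 3 differences passed in edgeR with library totals (log2 fold changes of -0.13, 0.052 and -0.080 for RSeT+DT against RSeT, RSeT against primed and RSeT+DT against primed cells). Scaling to interspersed repeats and satellites alone, after small RNA, ribosomal RNA and simple repeats were left out (interspersed scaling), gave 0.24 (SE 0.025, passing), 0.022 (SE 0.024, not passing) and 0.26 (SE 0.025, passing) for the same 3 comparisons. Against TMM, this scaling shifted the median log2 fold change by 0.22, -0.16 and 0.058, and library totals shifted it by -0.15, -0.13 and -0.28.

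**Figure D2:**
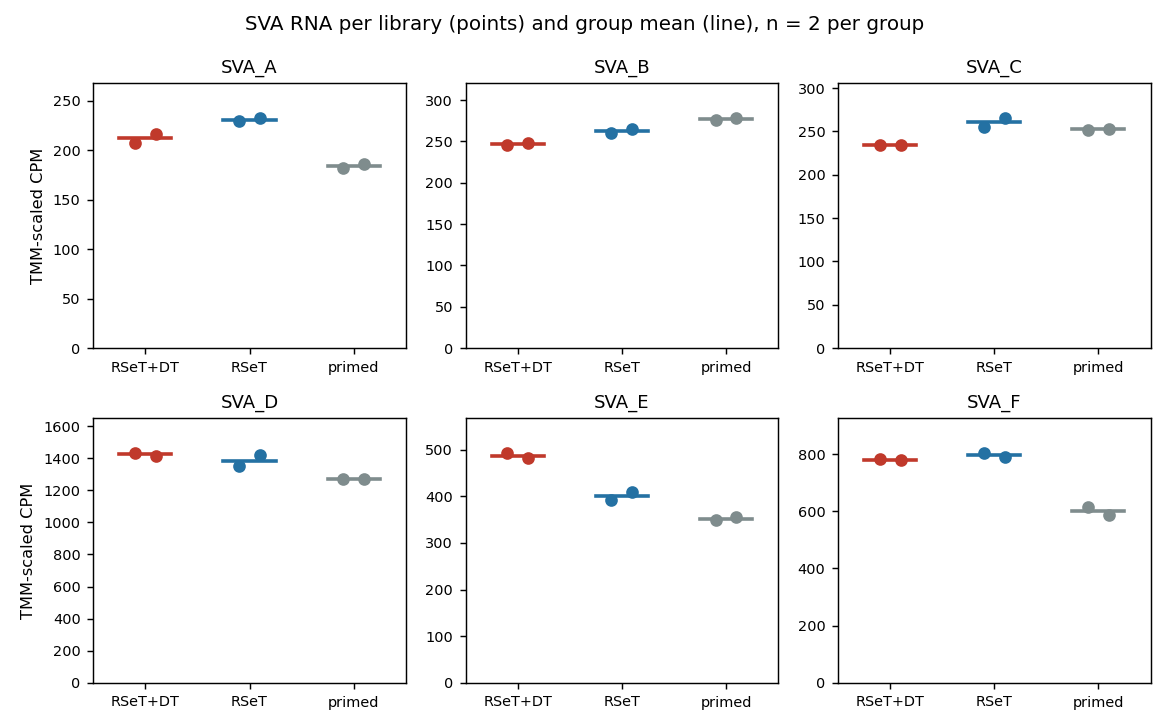
TMM-scaled CPM (y axis, from 0) of each SVA subfamily in RSeT+DT, RSeT and primed cells; points are libraries and lines are means of 2. SVA_E is highest in RSeT+DT (493.1 and 480.9), SVA_F is lowest in primed cells (614.2 and 585.8), and SVA_B is highest in primed cells (276.4 and 278.4).

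The comparison of RSeT+DT with RSeT cells addresses DZNep and TSA given together. The labels give the collection time of 48 hours for RSeT+DT cells alone, so a difference in time in culture cannot be told apart from the compounds. With TMM, 1 of 6 subfamilies rose and 3 fell, against 25% of all features higher and 17.4% lower, and against 5.55% higher and 54.3% lower among the 1154 interspersed repeats and satellites. SVA_E had 493.1 and 480.9 TMM-scaled CPM in RSeT+DT cells, against 391.3 and 408.8 in RSeT cells. It rose by 21.8% (log2 fold change 0.28, SE 0.042; adjusted p = 4.39e-06, edgeR) and ranked at 43 of 1154 interspersed repeats and satellites from the highest fold change. With library totals it stood at 0.13 and did not pass (adjusted p = 0.0543), and with interspersed scaling it rose by 0.51 (SE 0.033).

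SVA_A, SVA_B and SVA_C were the falls under TMM. SVA_A had 207.4 and 216.7 CPM in RSeT+DT against 229.0 and 232.5 in RSeT cells (log2 fold change -0.12, SE 0.038). SVA_B had 245.3 and 247.9 in RSeT+DT against 260.8 and 264.9 in RSeT cells (-0.091, SE 0.035). SVA_C had 234.4 and 234.6 in RSeT+DT against 255.6 and 265.5 in RSeT cells (-0.15, SE 0.036). For these 3, and for SVA_F without a call, the groups did not overlap (32.3% of all features were lower in RSeT+DT cells with no overlap). Under interspersed scaling the direction of the 3 turned, to 0.098 and 0.13 with a call for SVA_A and SVA_B and to 0.070 without one for SVA_C. The fall of SVA_B passed in none of the 6 fits that left a library out (log2 fold changes of -0.10 to -0.080; edgeR, and it passed in DESeq2 with all libraries), and that of SVA_A did not pass without RSeT+DT replicate 1 (-0.089) or RSeT replicate 2 (-0.11).

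SVA_D had 1434 and 1416 CPM in RSeT+DT against 1351 and 1417 in RSeT cells, which overlap (0.042, SE 0.043), and SVA_F had 782.1 and 779.9 in RSeT+DT against 804.9 and 789.8 in RSeT cells (-0.030, SE 0.044). Neither passed with TMM. With library totals SVA_F was lower with a call (-0.18) and SVA_D stood at -0.11, and with interspersed scaling both were higher with a call (SVA_D 0.26, SVA_F 0.19). By scaling, then, the 6 subfamilies gave 1 rise and 3 falls with TMM, 0 rises and 4 falls with library totals, and 5 rises and 0 falls with interspersed scaling. At an unadjusted p under 0.05, library totals gave 1 rise and interspersed scaling 0 falls. DESeq2, with its own size factors and not library totals, gave 1 rise and 3 falls. Limma on log2(deposited CPM + 1), which scales to library totals, called SVA_E higher (0.13, adjusted p = 0.0421). Over all features, library totals gave 16.9% higher and 24.8% lower, and interspersed scaling gave 22.6% higher and 20.7% lower among the repeats it kept. The SVA median was -0.061 with TMM, beside a median of 0.027 over all features and of -0.22 over interspersed repeats and satellites.

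**Figure D3:**
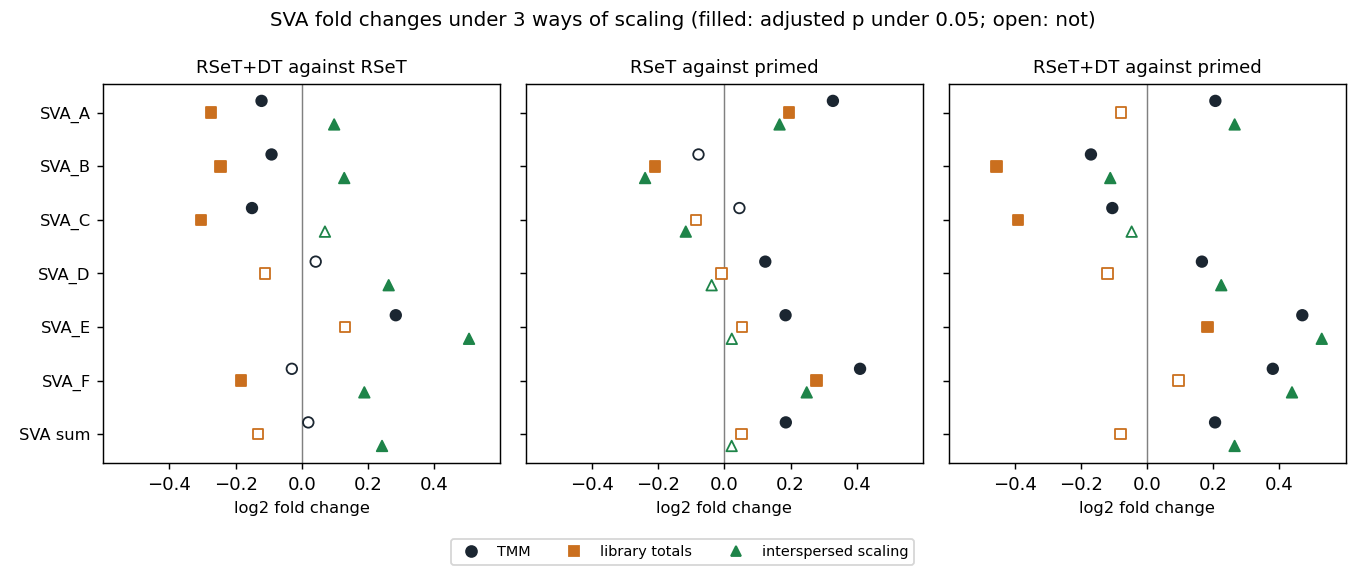
Log2 fold changes (x axis) of the 6 SVA subfamilies and their sum in the 3 comparisons under TMM (circles), library totals (squares) and interspersed scaling (triangles), filled where the adjusted p was under 0.05. SVA_E lies furthest right in RSeT+DT against RSeT cells under each scaling (0.28, 0.13 and 0.51), and the order of the subfamilies is kept while the whole set shifts.

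The comparison of RSeT with primed cells addresses the difference between naive-like and primed culture. With TMM, 4 of 6 subfamilies rose and none fell, against 22.8% of all features higher and 23.8% lower, and against 50.8% higher and 8.32% lower among interspersed repeats and satellites. For the falls, edgeR with TMM gave 1 at an unadjusted p under 0.05, and DESeq2 gave 0. The SVA median was 0.15, beside 0.16 over interspersed repeats and satellites and -0.030 over all features. Among the 1154 interspersed repeats and satellites, SVA_F ranked at 263 and SVA_A at 352 from the highest fold change. SVA_E ranked at 545, SVA_D at 656, SVA_C at 803 and SVA_B at 977. SVA_F had 804.9 and 789.8 CPM in RSeT cells, against 614.2 and 585.8 in primed cells. It rose by 32.9% (log2 fold change 0.41, SE 0.044; adjusted p = 2.71e-08), and also rose with library totals (0.28) and interspersed scaling (0.25).

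SVA_A had 229.0 and 232.5 CPM in RSeT cells, against 181.7 and 185.9 in primed cells. It rose by 25.5% (0.33, SE 0.037; adjusted p = 7.11e-08), by 0.20 with library totals and by 0.17 with interspersed scaling, each with a call. These were the 2 subfamilies that rose under all 3 scalings. SVA_E had 391.3 and 408.8 in RSeT against 348.7 and 354.9 in primed cells (0.18, SE 0.042), and SVA_D had 1351 and 1417 in RSeT against 1271 and 1270 in primed cells (0.12, SE 0.043). Both passed with TMM and with neither library totals nor interspersed scaling, where SVA_E stood at 0.052 and 0.022, and SVA_D stood at -0.0088 with library totals and at -0.039 with interspersed scaling. The call on SVA_D was lost when RSeT replicate 2 (log2 fold change 0.096), primed replicate 1 (0.12) or primed replicate 2 (0.12) was left out.

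SVA_B had 260.8 and 264.9 CPM in RSeT against 276.4 and 278.4 in primed cells (-0.078, SE 0.034; adjusted p = 0.0576). It did not pass with TMM and was lower with a call with library totals (-0.21) and interspersed scaling (-0.24). SVA_C had 255.6 and 265.5 in RSeT against 252.0 and 252.5 in primed cells (0.045, SE 0.035), did not pass with TMM or library totals (-0.086), and was lower with a call with interspersed scaling (-0.12). The 6 subfamilies gave 2 rises and 1 fall with library totals, against 14.6% and 32.9% of all features, and 2 rises and 2 falls with interspersed scaling, against 30% and 26.5%.

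RSeT+DT against primed cells spans both changes and shares its libraries with the other 2 comparisons. With TMM, 4 of 6 subfamilies rose and 2 fell, against 25.1% and 20.6% of all features and 24.6% and 34.3% of interspersed repeats and satellites. SVA_E had 493.1 and 480.9 CPM in RSeT+DT cells, against 348.7 and 354.9 in primed cells. It rose by 38.4% (log2 fold change 0.47, SE 0.043; adjusted p = 1.21e-09) and was the only subfamily that rose under TMM (0.47), library totals (0.18) and interspersed scaling (0.53) alike. SVA_F rose by 0.38 (SE 0.045), SVA_A by 0.21 (SE 0.039) and SVA_D by 0.17 (SE 0.043). With library totals these stood at 0.095, -0.079 and -0.12 and did not pass, and with interspersed scaling they rose by 0.44, 0.26 and 0.22.

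SVA_B fell by 0.17 on the log2 scale (-0.17, SE 0.035), and also fell with library totals (-0.46) and interspersed scaling (-0.11). SVA_C fell too with TMM (-0.11, SE 0.036) and library totals (-0.39), and stood at -0.047 without a call under interspersed scaling. The call on SVA_C with TMM was lost without RSeT+DT replicate 1 (-0.10), primed replicate 1 (-0.11) or primed replicate 2 (-0.10). Library totals gave 1 rise and 2 falls, against 13.1% and 38.3% of all features, and interspersed scaling gave 4 rises and 1 fall, against 32.2% and 29.6%.

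Repeats related to parts of an SVA, and the LINE1 elements that mobilise it, were set beside the family. A relative listed here need not be the source of the part. The lists were HERVK-int, LTR5, LTR5A, LTR5B and LTR5_Hs for the SINE-R part, AluY and 6 of its subfamilies for the Alu-like part, L1HS, L1PA2 and L1PA3 for mobilisation, and simple repeats with the hexamer as their unit. HERVK-int, the internal part of the HML-2 provirus, had 18630 and 19030 TMM-scaled CPM in RSeT+DT, 20010 and 19120 in RSeT, and 311.2 and 306.8 in primed cells. LTR5_Hs, the youngest promoter of that provirus, had 4786 and 4351 in RSeT+DT, 4008 and 3952 in RSeT, and 303.3 and 324.8 in primed cells.

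In RSeT against primed cells LTR5_Hs rose 12.7-fold and HERVK-int 63.3-fold, while the SVA sum rose 1.14-fold. Set against the SVA sum, LTR5_Hs rose by a further 3.48 (log2, SE 0.050; adjusted p = 3.93e-21) and HERVK-int by a further 5.80 (SE 0.037; adjusted p = 2.75e-27). LTR5, a low row with 21.9 and 21.3 CPM in RSeT+DT, 17.3 and 17.3 in RSeT, and 3.74 and 4.31 in primed cells, rose 4.30-fold (log2 fold change 2.11, SE 0.14) and also rose with library totals (1.98) and interspersed scaling (1.95). LTR5A stood at 0.089 and LTR5B at 0.019 with TMM, neither passing, and neither passed with library totals (-0.043 and -0.11). With interspersed scaling LTR5B was lower with a call (-0.14) and LTR5A stood at -0.073 without one. Whether reads of HML-2 RNA were counted as SVA through the SINE-R part was not tested. In RSeT+DT against RSeT cells, LTR5_Hs rose by 0.20 (SE 0.044) with TMM, whereas its 0.045 under library totals did not pass. HERVK-int stood at -0.056 without passing under TMM, and was lower with a call (-0.21) with library totals and higher with a call (0.16) with interspersed scaling. Relative to the SVA sum, LTR5_Hs was higher by 0.18 (adjusted p = 0.00376) and LTR5 by 0.30 (adjusted p = 0.032) in that comparison. By the same measure HERVK-int had a log2 fold change of -0.078 (adjusted p = 0.0467), LTR5A of -0.47 and LTR5B of -0.15, each with a call.

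**Figure D4:**
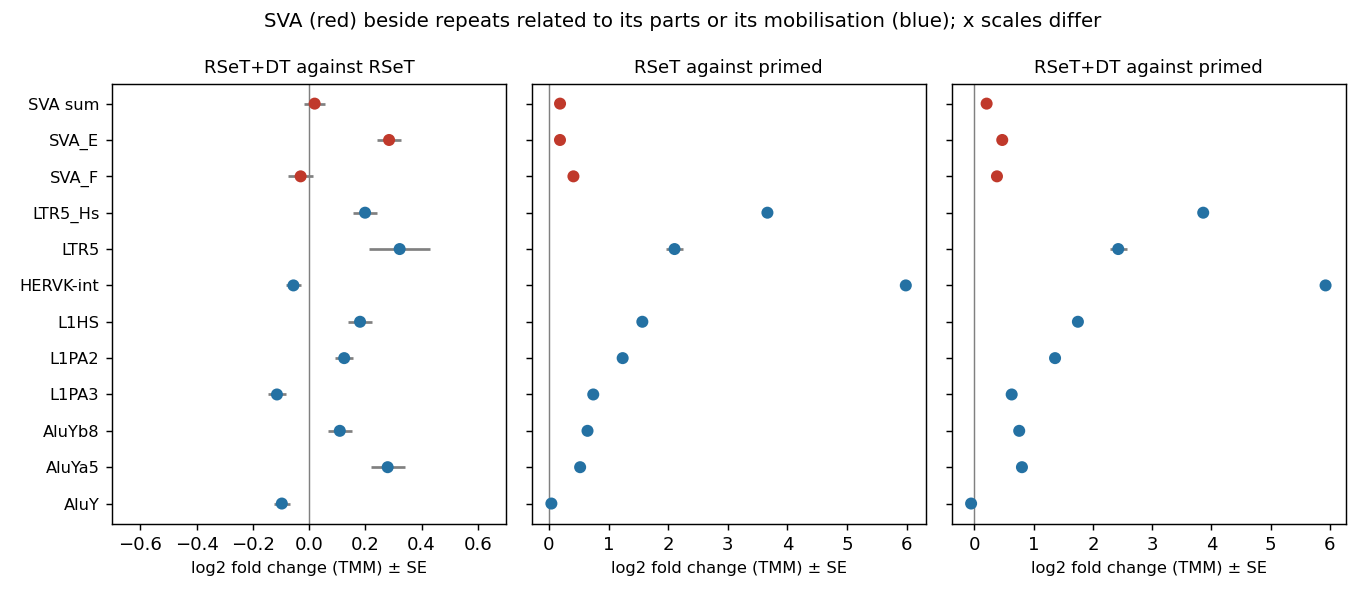
Log2 fold changes with TMM (x axis, ± SE; the scale of the first panel is narrower) of the SVA sum, SVA_E and SVA_F (red) and of HML-2, LINE1 and AluY repeats (blue). In RSeT against primed cells HERVK-int lies at 5.98 and LTR5_Hs at 3.66, while the SVA points lie between 0.18 and 0.41.

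L1HS, the youngest LINE1 subfamily, had 2775 and 2611 CPM in RSeT+DT, 2377 and 2373 in RSeT, and 821.1 and 782.9 in primed cells. Relative to the SVA sum it was higher by 1.38 (log2, SE 0.043; adjusted p = 1.84e-15) in RSeT against primed cells and by 0.16 (SE 0.042; adjusted p = 0.00472) in RSeT+DT against RSeT cells. In RSeT against primed cells the 3 young LINE1 subfamilies all rose, by 0.74 to 1.57 on the log2 scale, where 50.8% of interspersed repeats and satellites and 22.8% of all features were higher. Each also rose with library totals and interspersed scaling. In RSeT+DT against RSeT cells 2 of the 3 rose and L1PA3 fell with TMM, against 5.55% higher and 54.3% lower among interspersed repeats and satellites (25% and 17.4% of all features). With library totals L1PA3 fell and the other 2 did not pass (L1HS 0.027, L1PA2 -0.029), against 16.9% of all features higher and 24.8% lower, and interspersed scaling gave 3 rises, against 22.6%.

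Among AluY, 4 of 7 rose and the other 3 did not pass in RSeT against primed cells with TMM, against 50.8% of interspersed repeats and satellites higher and 8.32% lower, so that the share of rises was near that background. AluYd8 (1.05) and AluYb8 (0.65) led them. Interspersed scaling gave 4 rises and 2 falls, against 30% and 26.5%. AluYa5, which like AluYb8 is a young and mobile Alu, had 543.2 and 493.3 CPM in RSeT+DT, 455.5 and 397.6 in RSeT, and 317.6 and 276.7 in primed cells. It rose by 0.28 (SE 0.060) in RSeT+DT against RSeT cells, beside 0.28 for SVA_E, and, as for SVA_E, did not pass with library totals (0.13) and rose with interspersed scaling (0.50). The list as a whole did not share this rise. Of the 7 AluY rows, 2 rose with TMM in that comparison (AluYa5, and AluYb8 by 0.11) and 2 fell (AluY, and AluYc at -0.16). Among interspersed repeats and satellites 5.55% were higher and 54.3% lower. AluY itself stood at 0.040 (not passing) in RSeT against primed cells and fell by 0.097 in RSeT+DT against RSeT cells with TMM, against a rise of 0.12 with interspersed scaling. Relative to the SVA sum, AluY was lower in RSeT against primed cells (log2 fold change -0.14, SE 0.027) and in RSeT+DT against RSeT cells (-0.12, SE 0.027), both with a call.

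The hexamer of the 5′ end is listed as simple repeats under each of its rotations on both strands, of which 10 of 12 passed the filter on low counts. Summed, these 10 had 97.4 and 88.2 CPM in RSeT+DT, 77.2 and 77.6 in RSeT, and 90.4 and 99.2 in primed cells, so RSeT was lowest and the other groups overlapped. In the deposited CPM they were 86.4 and 81.0 in RSeT+DT, 77.4 and 78.0 in RSeT, and 97.6 and 111.4 in primed cells. There no groups overlapped, but how often other sums separate the groups was not counted. In RSeT+DT against RSeT cells (CCTCTC)n rose by 0.68 (SE 0.12) and (TCCCTC)n by 0.58 (SE 0.11), and the other 8 did not pass. With library totals the calls were 2 rises and 1 fall. All features had 25% higher and 17.4% lower with TMM, so that the share of rises was near the background. In RSeT against primed cells 2 of 10 rose and 4 fell with TMM, against 22.8% and 23.8% of all features, the largest fall being (GAGGGA)n (-1.53, SE 0.22). Library totals gave 1 rise and 6 falls there, against 14.6% and 32.9%. These arrays also occur outside SVA elements, and the tables do not tell the copies apart.

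By the pattern over the 6 libraries, the 5 repeats most like the SVA sum, out of 1133 other than simple repeats with a mean count of at least 50, were AmnSINE2, AluSq10, HERVK3-int, ERV3-16A3_LTR and LTR41B. Likeness was the root-mean-square difference in log2 TMM-scaled CPM after centring each repeat on its mean, and it was 0.018 for AmnSINE2 and 0.036 for LTR41B. Within the family, SVA_B and SVA_C were the most alike (0.052), and SVA_B and SVA_E the least (0.26). The nearest subfamily to SVA_F was SVA_A (0.081), and the nearest to SVA_E was SVA_D (0.13). Outside the family, the repeat nearest to SVA_E was LTR43-int at 0.044, against 0.012 to 0.027 for the nearest repeats of the other 5 members. These distances describe the same 6 libraries and carry no test.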

How the data were processed

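The labels' protocols name a miRNeasy kit for extraction and a stranded total RNA kit for the libraries. The authors deposited raw counts per repeat name. They also deposited CPM, which for the 7383 rows listed equal the counts scaled by each library's total over those rows, within 0.00442 CPM. The submitters' processing notes name Trimmomatic 0.39, STAR 2.7.8a, featureCounts, Subread 2.14.2 and GRCh38. What each tool did, which repeat annotation was used, and how strand and multi-mapping reads were handled is not given in the sources used here.

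Counts were tested with edgeR 4.0.16 (R 4.3.3), using TMM and filterByExpr (minimum count 10, minimum total 15). The quasi-likelihood test was fitted to all 6 libraries with a term for group alone, which leaves 3 residual degrees of freedom, and p-values were adjusted by Benjamini-Hochberg at 0.05. They rest on this model, since exact permutation of 2 against 2 libraries (two-sided) gives no p below 0.333. SE is the fold change over the root of F. The SVA sum replaced its 6 rows in a second fit, and shares were fitted with SVA counts as library size. Alternatives were RLE factors, library totals, interspersed scaling, no filter, DESeq2 1.42.0, limma 3.58.1 on log2(deposited CPM + 1 or + 0.1), a replicate block, and leaving out each library. The tests were also run on simulated counts in which a minority of features changed, in RSeT+DT alone. That setting does not check the choice of scaling, and its outcome is not given here. The members, lists, alternatives and rule for named repeats (all 6 subfamilies, relatives of SVA parts, 5 nearest patterns) were chosen with earlier results of these data known.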

Additional observations from a re-analysis of the deposited data

How the results depend on the processing

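Values follow the order RSeT+DT against RSeT, RSeT against primed and RSeT+DT against primed cells where 3 are given. The SVA sum in RSeT+DT against RSeT cells (0.020 with TMM, not passing) was at -0.020 with RLE factors, -0.021 without the filter and -0.020 in DESeq2, none passing. With library totals the sum was at -0.13, 0.052 and -0.080, none passing. There, 0, 2 and 1 subfamilies rose, RSeT against primed cells had 1 fall, SVA_D turned to -0.11, -0.0088 and -0.12, SVA_C to -0.086 in RSeT against primed cells and SVA_A to -0.079 in RSeT+DT against primed cells. Limma on log2(deposited CPM + 1) gave -0.13 (passing), 0.052 and -0.080 for the sum, and 2 rises and 1 fall in RSeT against primed and 1 rise in RSeT+DT against primed cells. It put SVA_D at -0.11, -0.0089 and -0.12 (the last passing), SVA_C at -0.085 in RSeT against primed cells and SVA_A at -0.079 in RSeT+DT against primed cells. With a pseudocount of 0.1 the counts and the calls on the sum were the same, with the sum at -0.13, 0.052 and -0.080, SVA_D at -0.11, -0.0089 and -0.12, SVA_C at -0.086 and SVA_A at -0.079. Interspersed scaling put the sum at 0.24 (passing), 0.022 (not passing) and 0.26. It gave 5 rises and 0 falls, 2 rises and 2 falls, and 4 rises and 1 fall, and in RSeT+DT against RSeT cells turned SVA_A to 0.098, SVA_B to 0.13, SVA_C to 0.070 and SVA_F to 0.19, and in RSeT against primed cells SVA_C to -0.12 and SVA_D to -0.039. In library totals, limma and interspersed scaling the scale of each library differs from TMM, and beyond that the cause was not tested. With the geometric mean of SVA counts as library size, the number of changed shares stayed within 1.5 times, but SVA_B in RSeT+DT against RSeT cells no longer passed (adjusted p = 0.0637), as without the filter (0.0911).

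With each library left out in turn, the sum stayed between 0.0011 and 0.040, 0.17 and 0.20, and 0.20 and 0.23, with falls of 1 to 2, 0 to 1 and 1 to 2 subfamilies, rises of 1 to 1, 3 to 4 and 4 to 4, and 2 to 4, 3 to 4 and 4 to 4 changed shares. With 1 library left in a group, its spread is assumed to equal that of the others. The replicate number as a block gave 1 fall (SVA_B) in RSeT against primed cells and changed no other call, and the shares had the same calls. The labels give no meaning to the numbers, and the deviations of same-numbered libraries were hardly correlated across features (0.031, 0.025 and -0.039). Depth limits SVA values little: the smallest count was 2294, with a counting error of 2.09%.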
